A study of Mus musculus with 3 samples.

Results

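Prrx1, Prrx2, Twist1 and Twist2 were followed as a set of 4 transcription factor genes in single cells of wild-type mouse forelimb buds. They were found by their Ensembl gene identifiers and are 4 of the 15122 genes in the count matrix. The study made 3 droplet libraries of trypsin-dissociated forelimbs, 1 per group: strain c57bl6.J at E9.5 (B6_E9.5), the same strain at E10.5 (B6_E10.5) and strain 129S6.sv at E9.5 (129_E9.5). Where 3 values stand together without names, they are in that order. No group carries a mutation, and no separate embryos or repeat reactions stand behind a group, so a difference between libraries has no replicate check. The comparison of stages (B6_E10.5 with B6_E9.5) and that of strains (129_E9.5 with B6_E9.5) share the B6_E9.5 library, and an effect of that library cannot be told apart from stage or strain.

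Prrx1 and Prrx2 encode paired-type homeodomain proteins, and Twist1 and Twist2 encode basic helix-loop-helix proteins. The mesenchyme of the limb bud, which forms the skeleton and connective tissue, comes from the lateral plate, whereas limb muscle comes from cells that migrate in from the somites and the surface is covered by ectoderm. Prrx1 is a widely used marker of limb mesenchyme, and mice that lack both Prrx genes have more severe limb defects than mice that lack Prrx1 alone. Twist1 is needed for limb bud outgrowth. Twist proteins bind E-box sites as dimers with E proteins (Tcf3, Tcf4, Tcf12) or with Hand factors, and Id proteins limit this by sequestering E proteins.

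In the GENCODE M21 annotation of mm10, Prrx1 (ENSMUSG00000026586) spans chr1:163245119-163313710 on the minus strand and Prrx2 (ENSMUSG00000039476) spans chr2:30834972-30881251 on the plus strand. Twist1 (ENSMUSG00000035799) spans chr12:33957671-33959829 and Twist2 (ENSMUSG00000007805) spans chr1:91801461-91848028, both on the plus strand. Prrx1 overlaps 3 annotated noncoding genes, 1 of them antisense (Gm20471), and Twist2 overlaps 2, 1 of them antisense (Gm29100). The sources used here do not say whether counting used strand, so UMIs of these partners could enter the values of Prrx1 and Twist2. Prrx2 and Twist1 overlap 0 other genes. Within each paralog pair, 0 windows of 50 bases were shared between transcripts, so reads of that length separate Prrx1 from Prrx2 and Twist1 from Twist2.

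The sequences before the transcription starts are shown because the 4 genes were high in the same cluster, and the letters let their upstream regions be compared directly. They are the bases before the start in the RefSeq annotation of GRCm38.p6, 5′ to 3′ on the gene's strand, without bases that GENCODE places in an exon of the gene. All 4 genes matched an entry, and the Prrx2 stretch lies in an annotated exon and is named only. Capitals mark 3 motifs on either strand. The homeodomain core searched was TAATTA. The GC box searched was GGGCGG. The third motif searched was the box named CCAAT after its letters.
Prrx1, chr1:163313711-163313900, minus strand: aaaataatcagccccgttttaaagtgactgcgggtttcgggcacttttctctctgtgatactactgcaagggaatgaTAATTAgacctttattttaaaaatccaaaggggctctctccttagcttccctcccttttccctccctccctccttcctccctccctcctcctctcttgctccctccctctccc
Twist1, chr12:33957421-33957670, plus strand: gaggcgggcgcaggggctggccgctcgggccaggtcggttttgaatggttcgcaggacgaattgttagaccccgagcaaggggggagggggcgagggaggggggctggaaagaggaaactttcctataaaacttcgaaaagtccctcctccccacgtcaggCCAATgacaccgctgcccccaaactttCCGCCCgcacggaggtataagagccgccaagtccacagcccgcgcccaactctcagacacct
Twist2, chr1:91801211-91801460, plus strand: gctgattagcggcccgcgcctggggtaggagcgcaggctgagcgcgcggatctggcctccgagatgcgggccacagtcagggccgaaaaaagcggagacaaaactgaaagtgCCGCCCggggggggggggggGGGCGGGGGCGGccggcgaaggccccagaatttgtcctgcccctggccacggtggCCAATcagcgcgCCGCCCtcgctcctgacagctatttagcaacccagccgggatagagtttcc

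Motifs were searched on both strands of the 250 bases before each start, and the searched motifs do not overlap at the matches given. GC content was 47.6% for Prrx1, 70% for Prrx2, 62.4% for Twist1 and 68.8% for Twist2, against a median of 52.4% over 32851 promoters. Prrx1 held the only TAATTA of the 4 genes, 173 bases before its start, a motif found in 4.84% of all promoters. Twist2 held 4 GC boxes (138, 118, 112 and 51 bases before the start), Prrx2 held 2 (87 and 39) and Twist1 held 1 (62), and 32.7% of all promoters held at least 1. Twist1 and Twist2 each held 1 CCAAT box, 89 and 63 bases before the start, as did 33.9% of all promoters. An E-box (CANNTG), present in 66.2% of all promoters, was found 0 times in these 4 windows.

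In the order given above, the libraries held 12773, 18957 and 12220 cells, with medians of 7623, 5710 and 7348 unique molecular identifiers (UMIs, 1 per captured molecule) per cell. The authors' 5 clusters are called here by markers among their 10 leading genes. Cluster 0 is mesenchyme-like (Lhx2, Lhx9, Tbx5), cluster 1 ectoderm-like, cluster 2 muscle progenitor-like (Lbx1, Pax3 and Eya1 among its markers), cluster 3 endothelium-like although led by the platelet gene Pf4, and cluster 4 erythroid-like. Mesenchyme-like cells numbered 9678, 15325 and 9233 in the order above, which is 75.8%, 80.8% and 75.6% of each library. Prrx1 is itself among the 10 leading genes of cluster 0, so its excess there is no finding, and all levels by cluster are descriptions. Doublets were not called, and 1728 cells carried a barcode also seen in another library. Neuron markers summed to 50.1, 37.8 and 1049 CPM in the muscle progenitor-like cells, and Nefm and Nefl are among that cluster's leading genes. Those cells also held sclerotome and somite markers at 903, 366 and 557 CPM (UMIs divided by the summed UMIs of the cluster in that library, scaled to a fixed total), and Myf5 and Myod1 were at 0 UMIs there in both E9.5 libraries.

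In mesenchyme-like cells the Prrx genes gave the most UMIs and Twist2 the fewest in each library, and Twist1 varied most between libraries. Levels are CPM of summed UMIs with exact Poisson 95% intervals, which cover counting error only. Prrx1 stood at 453 (449 to 457.5), 510 (506 to 515) and 396 (391 to 400.5) CPM, listed as above. Prrx2 stood at 304 (301 to 308), 360 (356 to 364) and 436 (431 to 441). Prrx1 was above Prrx2 in both c57bl6.J libraries and below it in 129_E9.5. Twist1 stood at 194 (191 to 196), 107 (105.2 to 109.5) and 85.9 (83.8 to 88.1), and Twist2 at 66.9 (65.3 to 68.5), 82.4 (80.5 to 84.3) and 57.4 (55.7 to 59.2). Because 3′ UMI counts are not set per length and capture differs between transcripts, the order between genes is an order of captured UMIs, not of transcripts per cell.

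The share of cells with at least 1 UMI ordered the libraries for Twist1 as its CPM did, but not for the stage comparison of the Prrx genes, when every cell was thinned to 2000 UMIs, with shallower cells left out (27.9%, 10.6% and 2.88% of mesenchyme-like cells). Prrx1 was found in 58.5%, 56.4% and 51.9% of the thinned cells, and Prrx2 in 43.5%, 42.1% and 54.6%, so that both shares were lower in B6_E10.5 than in B6_E9.5 while both CPM values were higher. Twist1 was found in 30.9%, 17.2% and 14.8%, and Twist2 in 12.2%, 13.9% and 10.3%. Unthinned, the shares were 73.4%, 77.4% and 86.8% for Prrx1, 67.1%, 63.6% and 85.5% for Prrx2, 60.4%, 38.2% and 42.8% for Twist1, and 38.6%, 31.5% and 31.3% for Twist2.

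**Figure D1:**
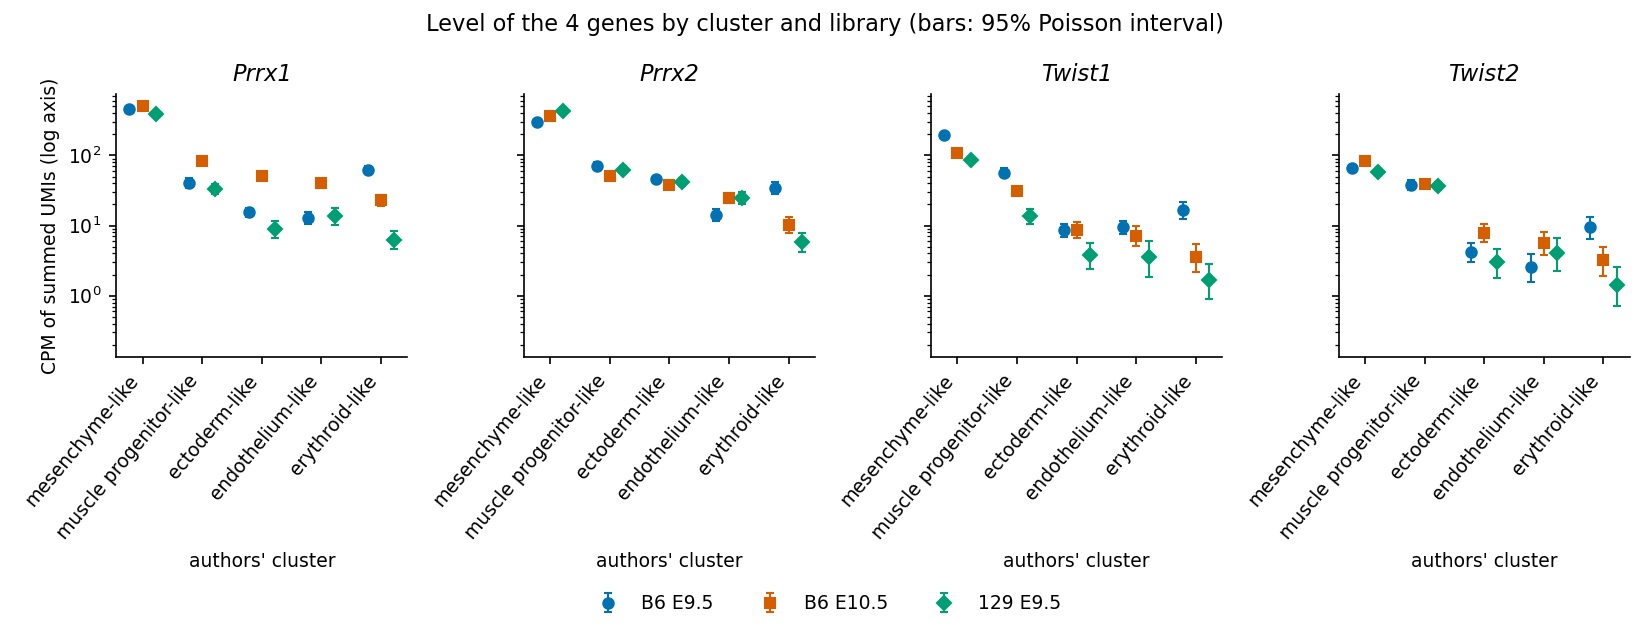
CPM of the 4 genes (log axis) in the 5 clusters, with 1 point per library and bars for exact Poisson 95% intervals. All 4 genes are highest in the mesenchyme-like cluster in each library, and Twist2 in the muscle progenitor-like cluster comes closest to its mesenchymal level.

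The clusters outside the mesenchyme set the background. In erythroid-like cells, whose own lineage should lack these factors, thinned shares were 5.1%, 5.12% and 1.45% for Prrx1, 5.1%, 3.07% and 1.29% for Prrx2, 1.91%, 1.28% and 0.483% for Twist1, and 0.637%, 1.54% and 0.483% for Twist2. Median depth of the erythroid-like cells was 735, 14610 and 12000 UMIs, against 8067, 5422 and 7463 in the mesenchyme-like cells. In B6_E9.5 only 157 of 951 erythroid-like cells were deep enough to be thinned. Over all erythroid-like cells Prrx1 was at 61.9 (53.9 to 70.7), 22.9 and 6.21 CPM. In B6_E9.5 this was above its level in ectoderm-like (15.5 CPM) and muscle progenitor-like cells (40.8 CPM). In endothelium-like cells the shares were between 1.7% and 6.45% for Prrx1 and between 2.9% and 4.12% for Prrx2, and between 0.726% and 2.36% for Twist1 and between 0.545% and 1.43% for Twist2. These shares are read as background, although the endothelium-like cluster is mixed. Neural crest and Schwann precursor markers summed to 270, 225 and 196 CPM in it. Macrophage markers summed to 20.5, 1462 and 7.57 CPM and megakaryocyte markers to 227, 1350 and 276 CPM, beside 3692, 2811 and 3991 CPM for endothelium markers. The part of such cells in the shares was not tested. The summed level of the 12 mesenchyme markers was 102, 148 and 110 CPM in endothelium-like cells and 190, 60 and 26 CPM in erythroid-like cells, against 1402, 1466 and 1430 CPM in the mesenchyme-like cells.

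By CPM, Prrx2 stood above this background in ectoderm-like cells of each library. It was at 45.5 (41.6 to 49.7), 37.8 (33.1 to 43) and 41.8 CPM (36.9 to 47.1), which is 15%, 10.49% and 9.58% of its mesenchymal level. Endothelium-like cells held 14.2, 24.8 and 24.9 CPM and erythroid-like cells 34.5, 10.3 and 5.83 CPM. By thinned share, Prrx2 was found in 9.02% (7.22 to 11.1), 5.81% (4.38 to 7.53) and 6.91% (5.52 to 8.53) of ectoderm-like cells. These intervals overlap that of erythroid-like cells in B6_E9.5 (2.2% to 9.79%). They overlap that of endothelium-like cells in B6_E10.5 (2.34% to 5.7%) and 129_E9.5 (2.42% to 6.51%). Prrx1 was at 15.5, 50.1 and 8.86 CPM in the same cells, or 3.41%, 9.82% and 2.24% of its mesenchymal level. The ratio of Prrx2 to Prrx1 UMIs was 4.39 times the mesenchymal ratio (3.67 to 5.27) in B6_E9.5 and 4.28 times (3.2 to 5.82) in 129_E9.5, but 1.07 times (0.897 to 1.27) in B6_E10.5. In both E9.5 libraries the excess of Prrx2 over Prrx1 was larger than counting error. In B6_E10.5, with 233 Prrx2 and 309 Prrx1 UMIs, the interval included 1 and ended below both E9.5 intervals. The excess was not confined to ectoderm. In endothelium-like cells the ratio was 1.63 times (1.24 to 2.14), 0.877 times (0.697 to 1.1) and 1.67 times (1.17 to 2.41) the mesenchymal ratio. In muscle progenitor-like cells, where Prrx2 was at 71.7, 51.7 and 62.7 CPM and so above its level in ectoderm-like cells, it was 2.62 times (2.12 to 3.25), 0.873 times (0.788 to 0.968) and 1.71 times (1.41 to 2.08). Among thinned ectoderm-like cells with 0 UMIs of the mesenchyme markers (30.7%, 41.8% and 40.6% of them), Prrx2 was at 53.3, 26.3 and 45.7 CPM and Prrx1 at 11, 32.8 and 5.32 CPM. Over all ectoderm-like cells the mesenchyme markers summed to 638, 505 and 504 CPM, and their part in the Prrx levels was not tested beyond these values.

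Twist2 came closest to its mesenchymal level in the muscle progenitor-like cells. It was at 37.9 (31.6 to 45), 39 (35.6 to 42.8) and 36.8 CPM (31.7 to 42.5), which is 56.6%, 47.4% and 64.1% of its mesenchymal level. Mesenchyme-like cells were thus higher by 1.77-fold (1.49 to 2.12), 2.11-fold (1.92 to 2.32) and 1.56-fold (1.35 to 1.82), with intervals for counting error. Twist1 was at 56.8 (49.1 to 65.4), 31.4 (28.3 to 34.7) and 13.5 CPM (up to 17.1 at the upper bound), or 29.3%, 29.2% and 15.7% of its mesenchymal level. Prrx1 reached 9%, 16.4% and 8.39% of its mesenchymal level there.

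Relative to Prrx1, both Twist genes were over-represented in the muscle progenitor-like cells of each library. The Twist2 to Prrx1 UMI ratio was 6.29 times (4.91 to 8.06), 2.89 times (2.57 to 3.23) and 7.63 times (6.14 to 9.49) the mesenchymal ratio. For Twist1 to Prrx1 it was 3.26 times (2.61 to 4.08), 1.78 times (1.57 to 2.01) and 1.88 times (1.39 to 2.5). In thinned muscle progenitor-like cells with 0 UMIs of the mesenchyme markers, Twist2 was at 18.9, 33.7 and 33.1 CPM and Twist1 at 94.3, 26.3 and 11 CPM. The B6_E9.5 values rest on 4 UMIs of Twist2 (5.14 to 48.3 CPM) and 20 UMIs of Twist1 (57.6 to 145.7 CPM). In the 76 of 636 thinned muscle progenitor-like cells of 129_E9.5 with 2 or more neuron marker UMIs, Twist1 was at 0 UMIs (up to 24.3 CPM allowed by the exact interval) and Twist2 at 6.58 CPM (1 UMI, 0.167 to 36.7). Twist2 was at 31.4, 39.3 and 33.1 CPM in cells with a UMI of a somite or sclerotome marker and at 24.2, 36.4 and 33 CPM in cells without. The value without such a UMI in B6_E9.5 rests on 3 UMIs (4.99 to 70.7 CPM). In ectoderm-like cells the Twist2 to Prrx1 ratio was 1.84 times (1.29 to 2.57), 0.983 times (0.711 to 1.33) and 2.34 times (1.31 to 4) the mesenchymal ratio. The Twist1 to Prrx1 ratio there was 1.31 times (1.01 to 1.7), 0.831 times (0.61 to 1.11) and 1.97 times (1.17 to 3.24). Both Twist genes thus exceeded the mesenchymal mix relative to Prrx1 in ectoderm-like cells of both E9.5 libraries, at levels of 3.01 to 8.66 CPM. Relative to Prrx2 they were below it in the same cells of B6_E9.5 and 129_E9.5. Twist1 to Prrx2 was 0.299 times (0.237 to 0.374) and 0.461 times (0.29 to 0.702) the mesenchymal ratio. Twist2 to Prrx2 was 0.4185 times (0.301 to 0.569) and 0.546 times (0.323 to 0.8715).

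**Figure D2:**
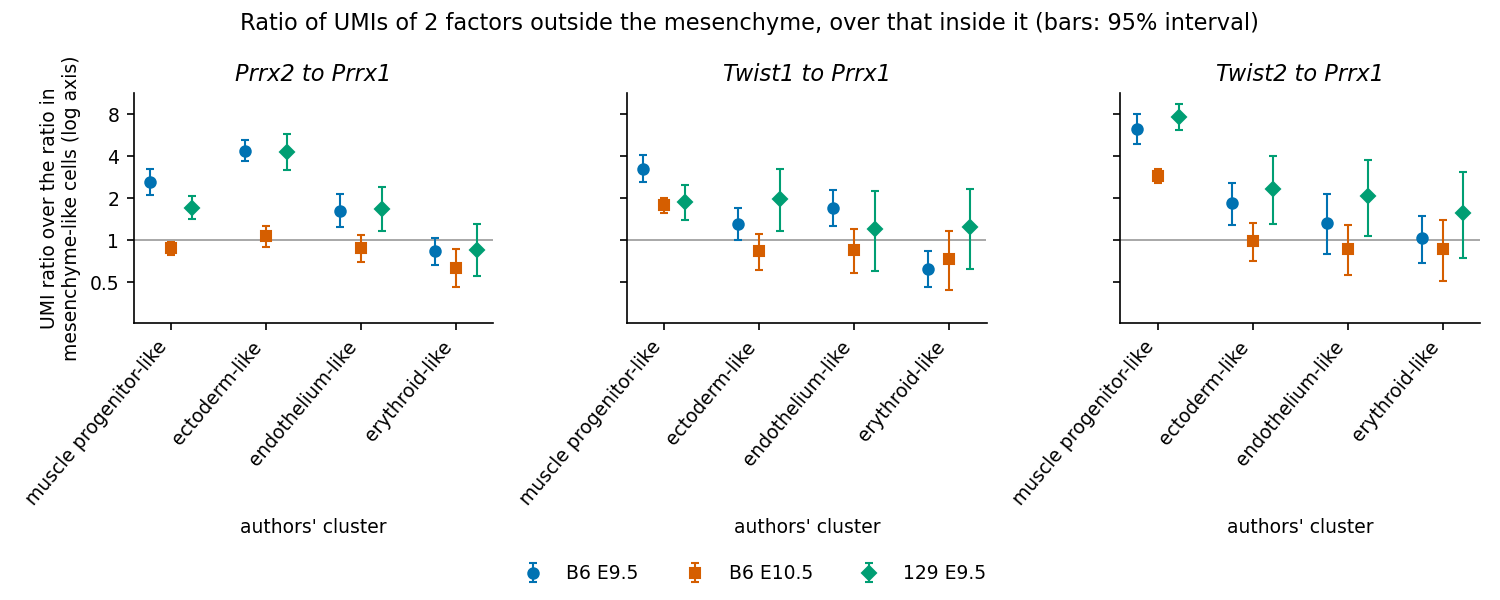
UMI ratios of Prrx2, Twist1 and Twist2 to Prrx1 in the 4 other clusters, each divided by the same ratio in mesenchyme-like cells of the same library (log axis, bars are exact 95% intervals for counting error). A value of 1 is the mesenchymal mix. Twist2 (2.89 to 7.63) and Twist1 (1.78 to 3.26) lie above it in the muscle progenitor-like cells of all 3 libraries, and Prrx2 lies above it in both E9.5 libraries in ectoderm-like (4.28 and 4.39), muscle progenitor-like (1.71 and 2.62) and endothelium-like cells (1.63 and 1.67).

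Between stages, Twist1 was lower and the other 3 genes were modestly higher in the mesenchyme-like cells of B6_E10.5. With 1 library per group, a gene was counted as different only when it passed 2-fold, among genes that reached 50 CPM and 20 UMIs in whichever library was higher. By this rule 0 of the 4 genes passed between stages, where 4.57% of 3303 genes were higher by 2-fold or more and 2.66% were lower by as much. Twist1 went from 194 CPM in B6_E9.5 to 107 in B6_E10.5, a ratio of 0.555 (0.541 to 0.568), and 135 of the 3303 genes had a lower ratio. Twist2 had a ratio of 1.23 (1.19 to 1.27), Prrx2 1.18 (1.17 to 1.2) and Prrx1 1.13 (1.11 to 1.14). The median log2 ratio of all genes was -0.01. Scaling by TMM factors brought Prrx1 to 1.01 (1 to 1.03) and Twist1 to 0.499, so that Twist1 then passed 2-fold.

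Between strains at E9.5, Twist1 was lower in 129_E9.5 and passed the 2-fold rule, the only 1 of the 4 genes to do so. Among 3282 genes, 2.44% were higher in 129_E9.5 by 2-fold or more and 3.53% were lower by as much. Twist1 stood at 194 CPM in B6_E9.5 and 85.9 in 129_E9.5, a ratio of 0.444 (0.431 to 0.457), and 77 genes had a lower ratio. Prrx2 was higher in 129_E9.5 with a ratio of 1.43 (1.41 to 1.46), exceeded by 16.3% of genes. Prrx1 had a ratio of 0.873 (0.86 to 0.886) and Twist2 of 0.859 (0.825 to 0.893), and the median log2 ratio of all genes was 0.08. The Twist1 level of B6_E9.5 stands above both other libraries, and both Twist1 ratios rest on it.

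Depth per cell moved with these levels. In mesenchyme-like cells of 4000 to under 8000 UMIs, Twist1 was at 221, 92.4 and 75.4 CPM. In cells of 16000 to under 40000 UMIs (3113, 166 and 167 cells) it was at 189, 145 and 115 CPM. In cells of 2000 to under 4000 UMIs (581, 3394 and 955 cells) it was at 128, 92 and 68.6 CPM. B6_E9.5 was the highest of the 3 libraries in each of these ranges, and the gap was narrower among the deepest and the shallowest of these cells. Below 2000 UMIs (2697, 1621 and 266 cells) Twist1 was at 85, 74.3 and 73.5 CPM. Prrx2 differed between stages by depth range: B6_E10.5 against B6_E9.5 was 303 against 319 CPM at 4000 to under 8000 UMIs and 488 against 312 CPM at 16000 to under 40000. Prrx1 was at 508 (501.3 to 515.5) against 514 CPM (500.1 to 529.1) in the former range and at 494 against 450 CPM in the latter. For Prrx2 the intervals in the former range were 297.1 to 308.1 against 307.6 to 330.5 CPM. Neither Prrx gene was thus higher in B6_E10.5 in cells of 4000 to under 8000 UMIs, and the intervals overlap. Erythroid markers summed to 1329, 298 and 450 CPM in the mesenchyme-like cells. With cells holding 2 or more UMIs of another cluster's markers left out, the Twist1 ratios were 0.544 between stages and 0.43 between strains. The loss was uneven, with 2499 of 6981, 11019 of 13704 and 6414 of 8967 cells of at least 2000 UMIs kept. The part of depth and of erythroid RNA in these ratios was not tested otherwise.

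**Figure D3:**
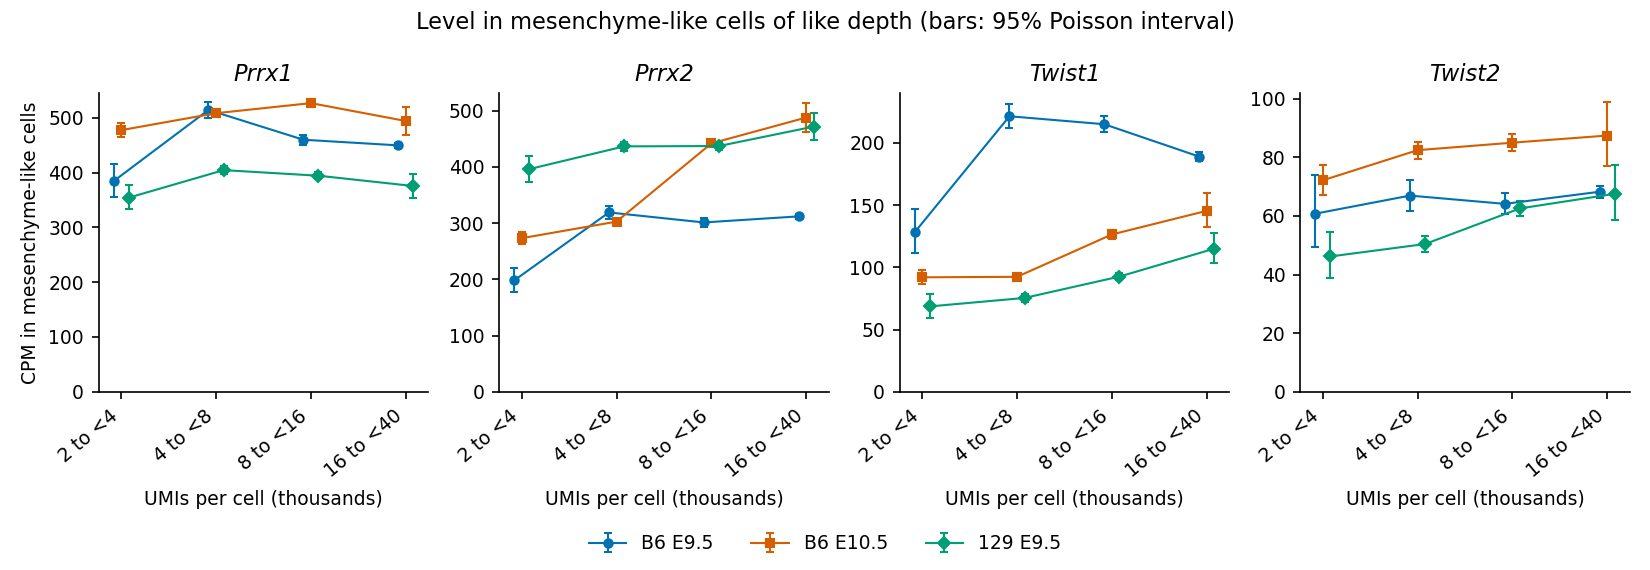
CPM of the 4 genes in mesenchyme-like cells grouped by UMIs per cell, with 1 line per library and exact Poisson 95% bars. Twist1 in B6_E9.5 lies above both other libraries in all 4 depth ranges. Prrx2 in B6_E10.5 climbs from 273 CPM in the shallowest to 488 CPM in the deepest cells shown (166 cells).

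Most mesenchyme-like cells carried a UMI of at least 1 of the 4 genes at equal depth. Of the thinned cells, 15.7%, 20% and 16.8% had none of them, 37.3%, 40% and 42.3% had exactly 1, and 34.4%, 31.1% and 33.6% had 2. All 4 genes were seen together in 0.988%, 0.708% and 0.335%. The variance of the UMI counts over their mean, which equals 1 for pure counting noise, was 1.14, 1.42 and 1.13 for Prrx1 and 1.14, 1.45 and 1.26 for Prrx2. It was 1.12, 1.13 and 1.03 for Twist1 and 1.02, 1.14 and 1.06 for Twist2. Both Prrx genes varied most in B6_E10.5, where Prrx2 had 0 UMIs in 58% of cells against 51.4% for counting noise at the same mean.

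The share of cells with a UMI of 1 gene shifted by a few percentage points with detection of another, and for the pairs below the gap was widest in B6_E10.5. Prrx2 was found in 44.7%, 45% and 55.4% of the cells with a Prrx1 UMI and in 41.8%, 38.2% and 53.8% of those without. Twist1 was found in 31.8%, 20.2% and 15.3% of the cells with a Prrx2 UMI and in 30.2%, 15.1% and 14.3% of those without. Twist2 went the other way, with 12%, 12% and 9.33% in cells with a Prrx2 UMI and 12.3%, 15.3% and 11.4% in those without.

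These pairs were tested by summing the thinned cells with and without a UMI of 1 gene in each library and comparing the sums with edgeR's quasi-likelihood test with the library as a block. The p-values are adjusted by Benjamini-Hochberg over all genes. The spread behind them is pooled over genes as well as taken between 3 libraries that differ in stage or strain. A gene whose difference varied between libraries can thus still have a low adjusted p. The lowest adjusted p among the pairs was that of Prrx2 in cells with Twist2, where Prrx2 fell by 0.26 on the log2 scale (SE 0.036, adjusted p 5.54e-10), in a fit where 0.628% of 11306 genes were called. Its log2 difference was -0.08, -0.33 and -0.31 by library, and DESeq2, unthinned counts and thinning to 4000 UMIs each ended the call. In the opposite split, by Prrx2 (1.54% of 11465 genes called), Twist2 fell by 0.25 (adjusted p 0.0229) and Twist1 rose by 0.22 (adjusted p 0.0422). In the split by Prrx1 (0.943% of 11450 called), Prrx2 rose by 0.17 (adjusted p 0.0399). These 3 calls were each lost under 4 or more of 11 other settings. In the split by Twist1 (0.579% of 11220 called), 0 of the other 3 genes passed, and Prrx2 had a log2 difference of 0.16 (adjusted p 0.0837), which passed the threshold under 7 of 11 other settings. Twist1 and Twist2 were not called with each other, with log2 differences of -0.02 and 0.06 (adjusted p 0.964 and 0.906).

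Cells with a Prrx1 UMI held more Lhx2, Lhx9 and Shox2 transcripts and fewer of several markers of other cell types. Several cartilage genes were also lower, through B6_E10.5. Of 11450 genes, 26 rose (0.227%) and 82 fell (0.716%), and DESeq2 called 10 and a repeat of the thinning kept 60 of the 108. Among the genes that rose were Lmo1, a LIM-only protein, by 0.37 on the log2 scale (SE 0.057, adjusted p 0.000194), Lhx2, a LIM-homeobox factor of the distal bud, by 0.37 (adjusted p 0.000239), Shox2, a homeobox factor of the proximal limb, by 0.31 (0.00032) and Lhx9 by 0.27 (0.00046). Asb4, Kif26b, Smyd3 and Cped1 rose by 0.17 to 0.50. The largest falls by adjusted p were those of Creb5, a bZIP factor (-1.21, 3.54e-10), Igfbp5, an IGF-binding protein (-1.08, 1.6e-09), the homeobox gene Gsc (-0.87, 6.54e-09) and the ligand Wnt2 (-1.81, 2.21e-07). The AP-1 gene Jun fell by 0.70, Ptn by 0.35, the matrix gene Sparc by 1.04 and Gata6 by 1.23.

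By list, 3 of 14 other limb homeobox factors rose in cells with Prrx1, and 4 of 10 chondrogenesis and tendon genes fell (Col2a1, Col9a1, Scx and Gdf5). None of these 4 calls stayed without B6_E10.5: Col2a1 was then at -0.29 (adjusted p 0.733), Col9a1 at -0.01 (0.987) and Scx at -0.02 (0.985), and Gdf5 did not pass the low-count filter. Of 14 outgrowth signals, 4 Id inhibitors and 5 Twist partners, 0 passed. Several markers of other cells fell with them: 2 of 4 mesothelium markers (Wt1 by 1.92 and Upk3b by 3.38), 2 of 6 ectoderm markers (Krt8 by 1.15 and Krt18 by 0.90) and the muscle progenitor marker Lbx1 (by 1.28). In the opposite direction, the sclerotome marker Pax1 rose by 1.17 (adjusted p 2.21e-07, with 0, 1.11 and 0.74 by library). The 4 mesothelium markers measured summed to 40.4, 101 and 45.1 CPM and the ectoderm markers to 27.8, 33 and 25 CPM in the mesenchyme-like cells, with Upk3b at 0 in B6_E10.5. The part of all these markers in the result was not tested. Without B6_E10.5, 19 of 28 named genes stayed past the threshold, and Gsc (-0.39, adjusted p 0.156), Kif26b (0.38, 0.199), Smyd3 (0.36, 0.356) and Cped1 (0.28, 0.135) were among those lost. Without B6_E9.5, Krt8 (-1.05, 0.0592) and Krt18 (-0.52, 0.461) were lost, and without 129_E9.5 Asb4 (0.18, 0.163) and Krt8 (-0.78, 0.206).

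Cells with a Prrx2 UMI held more transcripts of limb outgrowth signals and of Msx genes and fewer of cartilage genes, mostly through B6_E10.5. Of 11465 genes, 71 rose (0.619%) and 106 fell (0.925%), DESeq2 called 3, and a repeat of the thinning kept 121 of the 177. The BMP-responsive homeobox genes Msx2 and Msx1 rose by 0.97 (SE 0.098, adjusted p 6.67e-09) and 0.79 (3.73e-06), Lhx2 by 0.73 (4.03e-07) and the FGF antagonist Il17rd by 0.50 (1.13e-06). Cyp26b1, which degrades retinoic acid, rose by 0.63, Asb4 by 0.38 and Id1 by 0.35. The odd-skipped factors Osr2 and Osr1 fell by 1.00 (1.87e-08) and 0.88 (8.34e-07), and Fibin fell by 1.02. The cartilage collagen gene Col2a1 fell by 1.00 and Sox9, the master factor of cartilage, by 0.56 (8.17e-07). Emx2 fell by 0.78, Creb5 by 0.92 and the globin gene Hbb-bs by 1.37.

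Of 14 limb outgrowth signals, 7 rose in cells with Prrx2 (Fgf10 0.33, Etv4 0.31, Dusp6 0.33, Spry1 0.60, Spry4 0.86, Bmp4 0.24 and Wnt5a 0.32), with a list median of 0.26 against 0.00 over all genes. Of 10 chondrogenesis and tendon genes 6 fell, with a median of -0.57, and 3 of 4 Id genes rose. Of 14 other limb homeobox factors 4 rose and 7 fell, the latter including Shox2, Meis1 and Meis2. Markers of other cells also fell: the muscle progenitor markers Pax3 (by 1.73) and Lbx1 (by 1.40), 3 of 5 somite and sclerotome markers and 3 of 7 erythroid markers. In the opposite direction, the sclerotome marker Pax1 rose by 1.53 (adjusted p 4.32e-10, with 0.00, 1.505 and 0.02 by library) and the ectoderm marker Tfap2a rose by 0.83 (adjusted p 0.000289, and 0.432 without B6_E10.5). Somite and sclerotome markers summed to 17, 152 and 23 CPM and muscle progenitor markers to 10.1, 37.6 and 8.28 CPM in the mesenchyme-like cells, highest in B6_E10.5, and their part in the result was not tested.

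The B6_E10.5 library carried much of the Prrx2 comparison. Without it 55 genes were called, and 20 of 53 named genes stayed past the threshold, among them Msx1, Msx2, Lhx2, Lhx9, Il17rd, Cyp26b1, Asb4, Dusp6, Id1, Id2, Id3 and Emx2. Sox9 (-0.31, adjusted p 0.226), Col2a1 (-0.39, 0.688), Osr1 (-0.30, 0.7), Osr2 (-0.89, 0.365), Fibin (-0.42, 0.48) and Creb5 (-0.11, 0.951) were lost. So were 6 of the 7 outgrowth signals: Fgf10 (0.24, 0.316), Spry1 (0.34, 0.256), Spry4 (0.51, 0.278), Bmp4 (0.13, 0.546), Wnt5a (0.15, 0.686) and Etv4 (0.08, 0.803). Dusp6 stayed. Without 129_E9.5, 10 of 55 were lost, Id3 (0.21, 0.104) and Hbb-bs (-0.69, 0.584) among them, and without B6_E9.5 4 of 56, Fgf10 (0.34, 0.106) among them.

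Cells with a Twist1 UMI held more Msx1 and Lhx2 transcripts and fewer of several cartilage genes, mostly through B6_E10.5. Of 11220 genes, 14 rose (0.125%) and 51 fell (0.455%). DESeq2 called 0, with 174 at an unadjusted p under 0.05 against 1127 in edgeR, and a repeat of the thinning kept 24 of the 65 calls. Msx1 rose by 0.36 (SE 0.049, adjusted p 5.68e-10), with 0.17, 0.76 and 0.15 by library. Lhx2 rose by 0.38 (1.04e-07), Tril by 0.30, Lhx9 by 0.23, the neurotrophin gene Bdnf by 0.74, the cadherin gene Cdh6 by 0.49, the ephrin receptor gene Epha3 by 0.37 and Zfhx3 by 0.21. Sox9 fell by 0.58 (SE 0.073, adjusted p 1.84e-11), with -0.06, -0.70 and -0.43 in the 3 libraries. Col2a1 fell by 0.72, the chemokine gene Cxcl12 by 0.75, Itm2a by 0.42, the cell-cycle inhibitor Cdkn1c by 0.30, Foxc1 by 1.24, Wwp2 by 0.51 and Sparc by 0.63.

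By list, 4 of 10 chondrogenesis and tendon genes fell and 4 of 14 other limb homeobox factors rose in cells with Twist1. Markers of other cells moved as well: the sclerotome marker Pax1 rose by 0.90 (adjusted p 7.15e-09, with 0.00, 0.91 and -0.68 by library) and the mesothelium marker Wt1 fell by 1.48 (0.0363), and their part in the result was not tested. Of the 5 genes for E proteins and Hand factors and of the 4 Id genes, 0 passed, with list medians of 0.14 and 0.05. Without B6_E10.5, 15 genes were called and Lhx2 and Wt1 were the only named genes that stayed past the threshold, 2 of 20. Msx1 was then at 0.17 (adjusted p 0.25), Sox9 at -0.24 (0.666), Col2a1 at -0.14 (0.943), Itm2a at -0.32 (0.25), Tril at 0.23 (0.103) and Cxcl12 at -1.03 (0.0982). Without B6_E9.5, Cdh6 (0.50, 0.0883) was lost.

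Cells with a Twist2 UMI held more transcripts of Tcf4 and of the Wnt antagonists Nkd1 and Nkd2 and fewer of Id3 and Prrx2. Of 28 named genes, 22 lost their call without B6_E10.5, Tcf4 and Nkd2 among them. Of 11306 genes, 33 rose (0.292%) and 38 fell (0.336%), DESeq2 called 2 (Id3 and Cdkn1c), and a repeat of the thinning kept 41 of the 71. Tcf4, an E protein, rose by 0.28 (SE 0.041, adjusted p 1.03e-08), with 0.06, 0.41 and 0.08 by library. The Wnt antagonists Nkd1 and Nkd2 rose by 0.43 (8.2e-08) and 0.55 (2.95e-06), the BMP antagonist Nbl1 by 0.82 and the neurotrophin receptor gene Ngfr by 0.86. Hoxb9 rose by 0.55, Tril by 0.27 and the glycolysis gene Tpi1 by 0.15. The lowest adjusted p of a listed gene was that of the somite marker Meox2, which rose by 0.81 (7.89e-14), with -0.49, 0.89 and 0.07 by library and -0.21 (0.987) without B6_E10.5. The part of Meox2-expressing cells in the result was not tested. Osr1 rose by 0.47 (adjusted p 0.000771, and 0.953 without B6_E10.5).

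Id3 fell by 0.29 in cells with Twist2 (SE 0.035, adjusted p 1.82e-12), with -0.18, -0.33 and -0.31 in the 3 libraries, and stayed past the threshold in 11 of 11 other settings, as did Cdkn1c, which fell by 0.25 (1.84e-10). Asb4 fell by 0.26, Creb5 by 1.09, Lmo1 by 0.55 and Gsc by 0.56. Of the 5 partners of Twist proteins 3 rose (Tcf4, Tcf12 by 0.17 and Hand2 by 0.34), and 2 of 4 Id genes fell (Id3, and Id1 by 0.21). Of 14 other limb homeobox factors 4 fell, among them Msx2 (by 0.42), Meis2 (by 0.18) and Lhx9 (by 0.16). Without B6_E10.5, Msx2 and Lhx9 turned to 0.01 and 0.02, and their log2 differences by library were 0.28, -0.77 and -0.43 for Msx2 and -0.09, -0.46 and 0.09 for Lhx9.

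Without B6_E10.5, 10 genes were called in the Twist2 split, and 6 of 28 named genes stayed past the threshold (Id3, Cdkn1c, Nkd1, Ngfr, Hoxb9 and Prrx2). Tcf4 was then at 0.07 (adjusted p 0.946), Hand2 at 0.12 (0.966), Tcf12 at 0.21 (0.0621), Nbl1 at 0.46 (0.793), Nkd2 at 0.41 (0.569), Asb4 at -0.14 (0.245), Creb5 at -1.50 (0.714), Lmo1 at -0.30 (0.648), Gsc at -0.99 (0.0694) and Id1 at -0.18 (0.274). Without 129_E9.5, Hoxb9 was lost (0.44, 0.12), and without B6_E9.5 Tcf12 (0.16, 0.11). Jun, a gene that dissociation can induce, was the only 1 of 7 dissociation and stress genes to pass in each of the 4 splits and fell in all of them, by 0.70 for Prrx1, 0.49 for Prrx2, 0.55 for Twist1 and 0.54 for Twist2. Without B6_E10.5 the Jun call stayed in the Prrx1 split and was lost in the other three. Its part in the other differences was not tested.

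**Figure D4:**
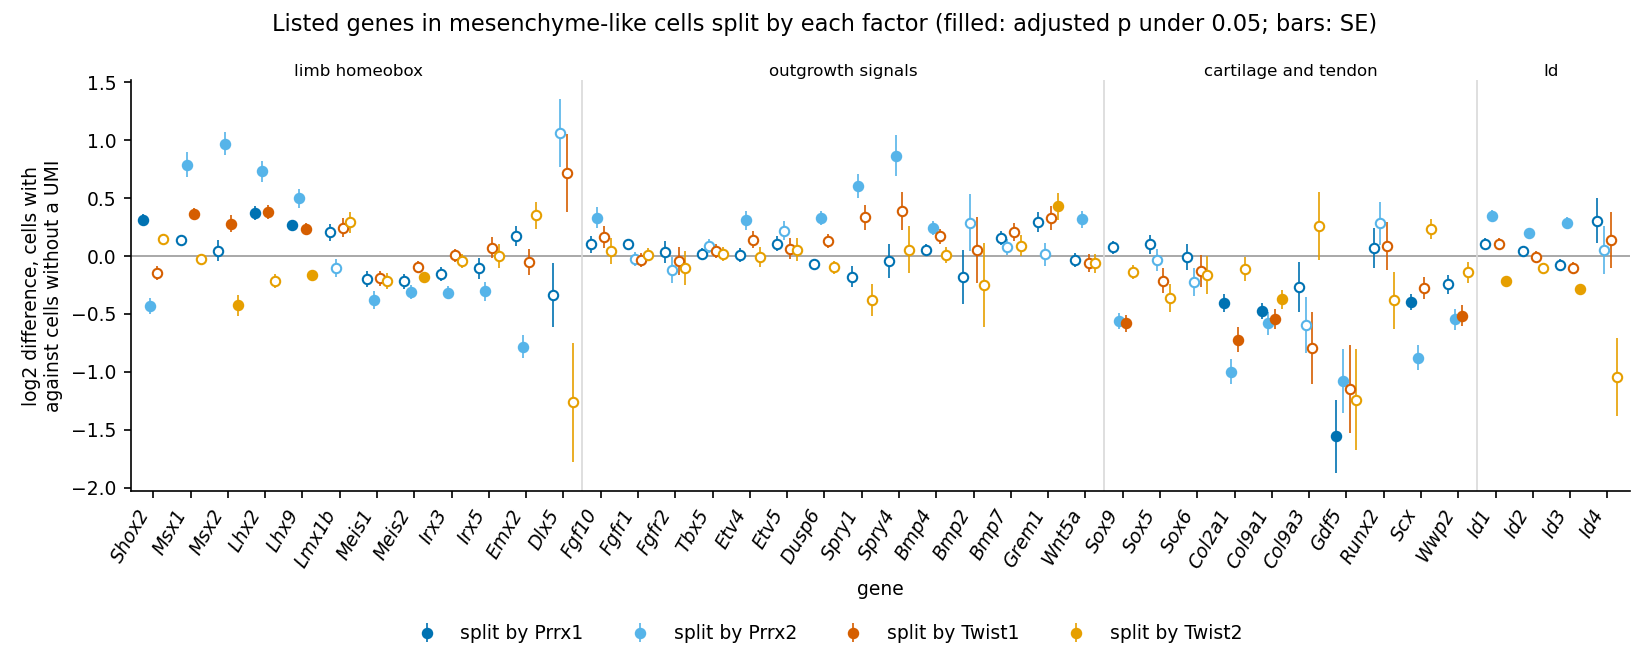
Log2 difference, with its standard error, of listed genes between mesenchyme-like cells with and without a UMI of Prrx1, Prrx2, Twist1 or Twist2, filled where the edgeR adjusted p is under 0.05. Msx1 rises with Prrx2 (0.79) and Twist1 (0.36), Sox9 falls with both (0.56 and 0.58), and Id3 falls with Twist2 (0.29).

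The same test asked where in the mesenchyme the 4 genes are higher, by splitting cells on a regional marker. Lhx2, Sox9, Scx, Meis1 and Hand2 were among the genes called above in the same thinned cells. Splits by them view the same co-detection from the other side and are no separate support. In cells with a UMI of Lhx2, a distal factor, 3 of the 4 genes were higher, where 2.96% of 11264 genes were called (1.04% rose and 1.92% fell). Twist1 was at 235, 150 and 95.2 CPM in cells with Lhx2 and at 188, 94.6 and 76.5 CPM in cells without. It rose by 0.43 (SE 0.066, adjusted p 0.000213) and passed under 11 of 11 other settings. Prrx2 was at 346, 603 and 527 CPM with Lhx2 and 295, 300 and 414 CPM without, and rose by 0.54 (SE 0.087, adjusted p 0.000474), a call that DESeq2 did not make. Prrx1 was at 534, 654 and 413 CPM with Lhx2 and 458, 487 and 383 CPM without, and rose by 0.25 (adjusted p 0.00612, and 0.0815 without B6_E10.5). Twist2 was lower with Lhx2 in each library (61.7 against 66.7, 54.6 against 82.7 and 53.3 against 56.8 CPM), but its log2 difference of -0.27 did not pass (adjusted p 0.136).

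In cells with a UMI of Sox9, which marks cartilage precursors, 2 of the 4 genes were lower (5.81% of 11799 genes called, 2.21% rose and 3.59% fell). Prrx2 was at 267.5, 228 and 371 CPM with Sox9 and 306, 377 and 447 CPM without, and fell by 0.50 (SE 0.072, adjusted p 1.39e-09). Twist1 was at 183, 68.3 and 54.2 CPM with Sox9 and 197, 114 and 82.7 CPM without, and fell by 0.59 (SE 0.091, adjusted p 1.76e-08). Both calls were lost without B6_E10.5, which held 4007 of the Sox9 cells against 271 in B6_E9.5 and 461 in 129_E9.5, and the values were then -0.28 (adjusted p 0.23) for Prrx2 and -0.35 (0.372) for Twist1. Prrx1 showed a log2 difference of 0.04 (adjusted p 0.86) and Twist2 of -0.22 (0.222). The tendon marker Scx was not tested, since B6_E9.5 held 29 thinned cells with it. In B6_E10.5, Prrx2 was at 186 CPM with Scx and 358 without, a ratio of 0.521 (0.482 to 0.561), and Prrx1 at 402 and 523 CPM. The other libraries did not show this fall of Prrx2. Its ratio was 1.08 (0.647 to 1.68) in B6_E9.5 and 1.07 (0.884 to 1.29) in 129_E9.5, which held 120 cells with Scx. For Prrx1 the ratio was 0.766 (0.474 to 1.17) in B6_E9.5 and 0.992 (0.8 to 1.22) in 129_E9.5.

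For other positional markers, calls were fewer. With Lmx1b, the dorsal factor (0.83% of 11203 genes called, 0.42% rose and 0.411% fell), Twist1 was at 239, 141 and 87 CPM against 191, 99.1 and 80.8 CPM without, and rose by 0.29 (adjusted p 0.0183), a call lost under 6 of 11 settings. Twist2 had a log2 difference of 0.32 there (adjusted p 0.0666). With Meis1, a proximal factor (4.2% of 11402 called, 2.16% rose and 2.04% fell), Prrx2 was at 301, 213 and 413 CPM against 305, 354 and 447 CPM, and fell by 0.33 (adjusted p 0.00316), lost under 5 of 11 settings. With Hand2, a posterior factor (1.02% of 11349 called, 0.502% rose and 0.52% fell), Prrx2 was at 342, 252 and 414 CPM against 301, 345 and 445 CPM and fell by 0.20 (adjusted p 0.0113), and without B6_E10.5 the difference turned to 0.02. With the anterior factor Alx4 (0.0719% of 11120 called), the late distal factor Hoxd13 (1.95% of 11164) and the cell-cycle gene Top2a (0.419% of 11466), 0 of the 4 genes passed. Hoxd13 cells had a Prrx1 difference of -0.30 (adjusted p 0.115), and Alx4 cells a Twist1 difference of 0.41 (adjusted p 0.453).

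**Figure D5:**
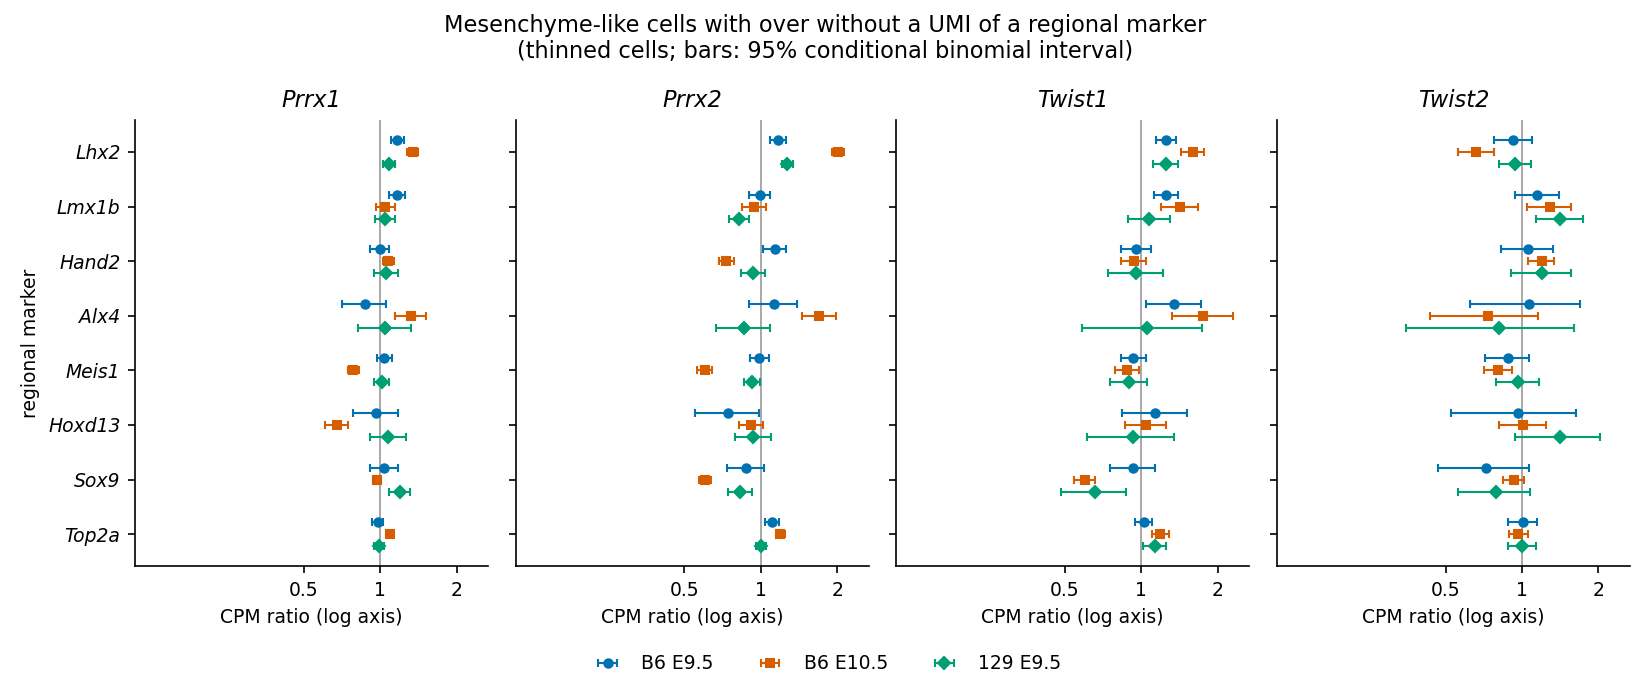
Ratio of CPM (log axis) in thinned mesenchyme-like cells with over without a UMI of each regional marker, 1 point per library, with exact 95% bars for counting error. Prrx2 lies above 1 with Lhx2 in each library, reaching 2.01 in B6_E10.5, and below 1 with Sox9, at 0.604 in B6_E10.5.

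The genes whose levels ran most like those of each member were ranked by the correlation of log2(CPM + 1) over 15 sums, 5 clusters in each of 3 libraries, among 8094 genes. The sums share libraries and depth and are mostly split by mesenchyme against the rest, so the values are descriptions. Ddr2, Lix1, Capn6, Hand2 and Hoxd10 were nearest to Prrx1 (Pearson r 0.976 to 0.963), and Cdo1, Dixdc1, Ssbp3 and Tril were among the 5 nearest to Prrx2 (0.963 to 0.948). Tmem132c, Pkdcc, Fgf10, Twist2 and Lix1 were nearest to Twist1 (0.949 to 0.925). Tnfaip6, Cdh11, Ppfibp2, Hoxa7 and Pdgfrb were nearest to Twist2 (0.98 to 0.955). Twist1 and Twist2 correlated at 0.925 and Prrx1 and Prrx2 at 0.881, so neither Prrx gene was among the 5 nearest to the other.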

How the data were processed

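The authors deposited raw, unnormalized UMI counts per gene and cell in a single matrix covering the 3 libraries, and a table of each cell's stage, strain and cluster number. Cell Ranger 3 and mm10 are listed in the submitters' processing notes, and the annotation release and clustering method are not given there. Of the gene identifiers, 14775 were found with their version in GENCODE M21 and 15119 were matched to a symbol. Cells held between 501 and 38723 UMIs, and no further filter on cells or doublet caller was applied. The libraries summed to 124388358 (B6_E9.5), 119942504 (B6_E10.5) and 93029510 UMIs (129_E9.5). PCR copies are collapsed by UMI, and intervals and the floor of 3 counts cover counting error only.

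Counts were summed per cluster and library and given as CPM. Shares of cells carry Clopper-Pearson 95% intervals and ratios exact conditional binomial intervals. For tests within the mesenchyme-like cluster, cells were thinned to 2000 UMIs (seed 1) and summed with and without a UMI of the splitting gene. The sums were fitted with edgeR 4.0.16 (limma 3.58.1, R 4.3.3; quasi-likelihood, TMM, filterByExpr, library as block, threshold 0.05). The splitting gene was left out, and log2 differences within 1 library use CPM + 1. The scripts were tested on simulated data and used Python 3.11.15, numpy 2.4.6, scipy 1.17.1, pandas 2.3.3 and matplotlib 3.10.9.

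Named genes are the 4 members, for each split the 8 genes of smallest adjusted p that rose and the 8 that fell with the same direction in 3 of 3 libraries, the 5 most alike genes, and members of fixed lists that are named with their values. Some genes that this rule names are not reported here. The members and lists were chosen with earlier results of these data known. Alternatives were DESeq2 1.42.0, no low-count filter, no TMM, leaving out each library, unthinned counts, 4000 UMIs, seed 2, other depth limits, and leaving out cells with 2 or more UMIs of another cluster's markers. Leaving these out without regard to erythroid markers, and keeping only cells from 4000 to under 16000 UMIs, were added after seeing the data.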

Additional observations from a re-analysis of the deposited data

Results flagged for a closer look

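Prrx2 in mesenchyme-like cells with and without a UMI of Hand2, a posterior factor, differed in direction between the c57bl6.J libraries. The CPM ratio of cells with over cells without Hand2 was 1.134 (1.02 to 1.26) in B6_E9.5 and 0.731 (0.682 to 0.783) in B6_E10.5, and it was 0.932 (0.837 to 1.04) in 129_E9.5. Prrx2 was at 342 against 301 CPM in B6_E9.5 and at 252 against 345 CPM in B6_E10.5. The result drew attention because the libraries of the 2 stages moved in opposite directions. The difference between stages was not tested, since each stage has 1 library.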

How the results depend on the processing

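The stage and strain ratios kept their direction in the alternatives below. Within cells of 4000 to under 8000 UMIs, however, Prrx1 and Prrx2 were not higher in B6_E10.5 than in B6_E9.5, with overlapping intervals. Values that moved by more than counting error follow. Between stages, the Prrx1 ratio was 1.085 for cells of 2000 to under 16000 UMIs, 1.07 thinned, 1.107 without mixed-marker cells, 1.083 for cells of 4000 to under 16000 UMIs and 1.013 with TMM. Prrx2 was 1.094 thinned, 1.161 without mixed-marker cells, 1.207 at 4000 to under 16000 UMIs and 1.065 with TMM. Twist1 was 0.5034, 0.5124, 0.5018 and 0.499 (2000 to under 16000 UMIs, thinned, 4000 to under 16000, TMM), and Twist2 1.287 at 4000 to under 16000 UMIs and 1.108 with TMM. Between strains, Prrx1 was 0.8395, 0.8267, 0.8519, 0.8348 and 0.8578 (2000 to under 16000 UMIs, thinned, without mixed-marker cells, 4000 to under 16000, TMM), Prrx2 1.377 without mixed-marker cells and 1.407 with TMM, and Twist1 0.3988, 0.4134, 0.4296 and 0.3934 (2000 to under 16000, thinned, without mixed-marker cells, 4000 to under 16000). Genes at least 2-fold higher between stages numbered 533 with a floor of 10 CPM, and those lower 143 with TMM, 215 with 10 CPM and 138 at 4000 to under 16000 UMIs. Between strains, those higher numbered 208 with 10 CPM and 173 at 4000 to under 16000 UMIs, and those lower 314 and 198. Genes called with Prrx1 numbered 10 in DESeq2, 168 with no filter and 72 to 116 leaving out 1 library. Genes called with Prrx2 numbered 3 in DESeq2 and 55 to 268 leaving out 1 library. Genes called with Twist1 numbered 0 in DESeq2, 207 with no filter, 129 with no TMM, 629 unthinned, 107 at 4000 UMIs, 37 with seed 2, 101 without mixed-marker cells apart from erythroid ones, and 15 to 88 leaving out 1 library. Genes called with Twist2 numbered 2 in DESeq2, 876 unthinned and 10 to 60 leaving out 1 library. As log2 differences, the sign turned as follows, with the other end of the leave-1-out range in brackets. Twist2 in cells with Prrx1 was 0.022 without 129_E9.5 [-0.037], 0.088 unthinned and 0.0076 with seed 2. Twist2 in cells with Twist1 was 0.023 without 129_E9.5 [-0.037], 0.0106 with no TMM, 0.137 unthinned, 0.0486 at 4000 UMIs, 0.151 with seed 2 and 0.0502 without mixed-marker cells. Prrx1 in cells with Twist2 was 0.0085 with seed 2. Without B6_E10.5, Prrx2 with Hand2 was 0.0187 [-0.344]. Without it, in cells with Prrx2 Col9a1 was 0.0647 [-0.712] and Gsc 0.049 [-0.392]; with Twist1 Col9a1 was 0.102 [-0.694], Gsc 0.139 [-0.496] and Msx2 -0.0112 [0.436]; with Twist2 Lhx9 was 0.0227 [-0.307], Meox2 -0.206 [0.858] and Msx2 0.0052 [-0.717]. Without mixed-marker cells, Krt18 was 0.0024 with Prrx1, and Hbb-bs 0.0914 and Hbb-bh1 0.000501 with Prrx2. In DESeq2, Gdf5 was 0.492 with Prrx1 and Pax1 -0.331 with Twist1, and unthinned Cenpf was 0.0053 with Twist2. Single-gene values under alternatives were levels and shares, judged by their interval, and log2 differences, judged by direction and threshold. Of these values, 1367 stayed the same, 423 lost the threshold, 13 gained it, 25 turned sign and 170 levels or shares left their interval. The cause was not tested. No paired analysis was possible because each stage and strain group has 1 library; the comparisons of cells with and without a UMI already hold the library as a block.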
